A study of Homo sapiens with 24 samples.

Results

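The 9 RGS genes described here, RGS1, RGS2, RGS10, RGS12, RGS13, RGS14, RGS16, RGS18 and RGS19, were taken by symbol from the array annotation, where 14 of 41000 probes carry one of these names and the genes are 9 of 30142. RNA came from 4 diffuse large B-cell lymphoma (DLBCL) lines, of which DB and K422 are labelled GCB-DLBCL (germinal centre B-cell-like) and HBL-1 and OCI-Ly3 are labelled ABC-DLBCL (activated B-cell-like). Every line was electroporated with one of 2 siRNAs against FOXP1, siFOXP1_308 (siFOXP1 #1) or siFOXP1_309 (siFOXP1 #2), or with a non-silencing control duplex (siCtrl), and harvested after 48 h in 3 independent experiments. Each of the 24 two-colour Agilent arrays set 1 silenced RNA, in Cy3, against siCtrl RNA of the same line, in Cy5, so within a line the dye bias of a probe and an effect of silencing cannot be told apart. The cells are long-established lines, 2 for each subtype, and the effect is that of a transient transfection in bulk RNA, where fewer cells of a type and less RNA per cell cannot be told apart.

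RGS proteins speed up the hydrolysis of GTP by the alpha subunits of heterotrimeric G proteins, and thereby shorten the signal of chemokine and lipid receptors. In B cells these receptors, CXCR4, CXCR5 and those for sphingosine-1-phosphate among them, guide cells into and within lymphoid follicles. RGS1 and RGS13 are known as brakes on chemokine responses in germinal centre B cells, and FOXP1 is a forkhead transcription factor of the B lineage.

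RGS18, RGS1, RGS13 and RGS2 lie next to one another on chromosome 1: in the RefSeq order (GRCh38.p14) they are 4 of the 5 protein-coding genes of that stretch, and RGS21 is the other. The 250 bases before their RefSeq starts are printed because these neighbours gave the clearest changes below, each in a different set of lines. Capitals mark TGTTTA, a forkhead core, on either strand (TAAACA on the other), in RefSeq sequence of GRCh38.p14 read 5′ to 3′ along the gene.
RGS18, chr1:192158212-192158461, + strand: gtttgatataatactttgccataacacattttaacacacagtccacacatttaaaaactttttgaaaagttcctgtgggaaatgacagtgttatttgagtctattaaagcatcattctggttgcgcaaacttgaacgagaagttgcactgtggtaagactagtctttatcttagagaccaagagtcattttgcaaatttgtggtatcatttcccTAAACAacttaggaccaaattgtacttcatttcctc
RGS1, chr1:192575523-192575772, + strand: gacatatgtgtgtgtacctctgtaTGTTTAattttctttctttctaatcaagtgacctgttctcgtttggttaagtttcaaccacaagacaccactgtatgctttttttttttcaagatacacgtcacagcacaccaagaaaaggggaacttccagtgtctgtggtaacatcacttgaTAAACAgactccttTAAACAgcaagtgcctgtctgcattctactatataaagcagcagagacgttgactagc
RGS13, chr1:192635897-192636146, + strand: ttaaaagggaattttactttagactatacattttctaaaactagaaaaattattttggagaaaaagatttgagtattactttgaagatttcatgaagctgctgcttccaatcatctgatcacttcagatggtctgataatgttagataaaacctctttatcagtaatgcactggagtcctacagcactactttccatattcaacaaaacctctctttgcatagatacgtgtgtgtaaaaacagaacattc
RGS2, chr1:192808789-192809038, + strand: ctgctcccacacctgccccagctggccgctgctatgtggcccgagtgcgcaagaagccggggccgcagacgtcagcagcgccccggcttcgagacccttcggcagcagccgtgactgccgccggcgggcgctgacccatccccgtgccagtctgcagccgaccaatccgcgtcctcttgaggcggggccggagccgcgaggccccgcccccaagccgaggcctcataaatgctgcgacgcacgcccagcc
The window of RGS1 held 3 matches, which begin 226, 72 and 58 bases before the start. That of RGS18 held 1, which begins 36 bases before it, and those of RGS13 and RGS2 held none. Of 35116 windows of this length in the RefSeq table, 11.0% held TGTTTA. Over all 15 windows listed for the 9 genes, 3 held it, the other being one of the 2 windows of RGS10. The longer TGTTTAC, which contains the first motif, was on either strand in 2.98% of all windows and in 0 of the 15. On the same terms TATTTGT, which does not contain the first motif, was in 3.18% of all windows and in 1 of the 15, again of RGS10. A match of letters is not a binding site, and no match says only that these letters are not in the window.

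FOXP1 itself fell on each of the 24 arrays, with mean log2 ratios by line of silenced over control from -2.00 in DB to -1.34 in K422, and siFOXP1 #2 lowered it more than siFOXP1 #1 in each. The 6 B-cell markers examined were well above background on every array of all 4 lines. All 4 germinal centre markers were so in DB and K422, against 2 of 4 (BCL6 and LMO2) in HBL-1 and OCI-Ly3, and all 3 activated-type markers in HBL-1 and OCI-Ly3 against 1 of 3 (BATF) in DB and K422. Of 5 T-cell markers, 3 (CD3D, CD3E and CD3G) were above background in K422, 1 (CD3E) in HBL-1 and OCI-Ly3 and 0 in DB, and of 3 NK markers 0 were in any line. Of 5 myeloid markers 1 (CSF1R) was in DB, 3 in K422 and 2 each in HBL-1 and OCI-Ly3, and their part in the results was not tested. DB and OCI-Ly3 were processed with one version of the image-analysis software (Feature Extraction) and K422 and HBL-1 with another. Lines were therefore tested against each other within these pairs, called software group 1 and software group 2.

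Before silencing, the lines already differed in most of the RGS genes. The level is given as log2 of the siCtrl signal relative to the 75th percentile of its array, as the mean over 3 replicates, and the order of different genes is not compared. A call needed a limma adjusted p (Benjamini-Hochberg over all genes) under 0.05 together with a 2-fold or greater difference, which 25.7% of all genes met between OCI-Ly3 and DB and also 25.7% between HBL-1 and K422. Of the 9 RGS genes 5 met it in the first pair and 7 in the second.

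RGS1 was far higher in the ABC-DLBCL lines. Its level was 3.05, 2.53 and 2.65 in the 3 OCI-Ly3 replicates and 0.88, -0.06 and -0.27 in HBL-1, against -4.60, -6.81 and -4.64 in DB and -3.98, -8.00 and -7.46 in K422. In the GCB-DLBCL lines RGS1 was well above background in the siCtrl channel on only 3 of 6 arrays of DB and 2 of 6 of K422, so most of these low values lie at the limit of the array. The difference was 8.09 ± 0.93 (SE) between OCI-Ly3 and DB (limma adjusted p = 2.50e-05) and 6.67 ± 0.93 between HBL-1 and K422 (adjusted p = 1.26e-04), with no overlap of replicates in either. With normexp background correction these differences shrank to 5.13 and 3.08 and were still called.

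RGS12, a large RGS protein that also binds Ras-like GTPases and carries a GoLoco motif, followed the same order. Its level in OCI-Ly3 was -0.85 ± 0.26 (SD, n = 3) and that in HBL-1 -1.31 ± 0.55, while DB stood at -4.71 ± 0.33 and none of the 6 K422 arrays was well above background. OCI-Ly3 exceeded DB by 3.85 (limma adjusted p = 6.24e-07). HBL-1 was at least 3.70-fold higher than K422, a bound set by the dimmest signal still above background and not itself tested. The limma test of the levels as measured, with K422 at background, gave 6.29 for HBL-1 minus K422 (adjusted p = 1.19e-08). With normexp the difference between OCI-Ly3 and DB was 1.91.

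RGS16 and RGS18 ran the other way. RGS16, which acts on the Gi and Gq classes, was at 5.71, 5.44 and 5.23 in DB and 4.39, 3.98 and 4.16 in K422, but at 0.42, 0.23 and 0.40 in OCI-Ly3 and -2.47, -2.20 and -2.89 in HBL-1. The groups lie far apart, and the signal was 34.5-fold higher in DB than in OCI-Ly3 (adjusted p = 2.41e-09) and 104-fold higher in K422 than in HBL-1 (adjusted p = 3.19e-10). On the log2 scale the second difference was -6.70 for HBL-1 minus K422 and -5.93 with normexp, loess and Aquantile. RGS18, best known from platelets and myeloid cells, was at 3.18 ± 0.32 in DB and 1.27 ± 0.15 in K422 and was not well above background on any array of HBL-1 or OCI-Ly3. It was therefore at least 66.6-fold higher in DB than in OCI-Ly3 and at least 20.7-fold higher in K422 than in HBL-1, bounds that were not themselves tested. The limma test used the levels as measured, with background values on the dim side. It gave -10.66 for OCI-Ly3 minus DB (adjusted p = 7.30e-12) and -9.29 for HBL-1 minus K422 (adjusted p = 1.69e-11).

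The other 5 genes did not sort by subtype. The RGS13 replicates were at 4.11, 3.84 and 4.04 in OCI-Ly3, and the mean was 3.67 ± 0.20 in DB, 2.89 ± 0.13 in K422 and 1.17 ± 0.04 in HBL-1. Its level was 3.31-fold lower in HBL-1 than in K422 (adjusted p = 1.23e-06), and OCI-Ly3 and DB differed by 0.32 (95% interval 0.03 to 0.62, adjusted p = 0.0810). The siFOXP1 channel of the same arrays gave -0.22 for HBL-1 against K422, which was not called (adjusted p = 0.315). RGS10, a short RGS protein of lymphoid and myeloid cells, was bright in every line, 2.25-fold higher in DB than in OCI-Ly3 (adjusted p = 8.77e-06) and 3.80-fold higher in HBL-1 than in K422 (adjusted p = 1.54e-07), so its order was not that of the subtypes. RGS19, which prefers Gi proteins, was 6.17-fold higher in K422 than in HBL-1 (adjusted p = 8.75e-09) and 1.91-fold higher in OCI-Ly3 than in DB (adjusted p = 4.13e-05), the second under the 2-fold limit. RGS14 was at 1.17 ± 0.14 in DB and 0.98 ± 0.20 in OCI-Ly3 with overlapping replicates, and at -0.89 ± 0.10 and -1.21 ± 0.27 in K422 and HBL-1, also overlapping. Neither difference of RGS14 was called, with 95% intervals of -0.55 to 0.16 for OCI-Ly3 minus DB and -0.67 to 0.04 for HBL-1 minus K422. Its levels parted by software group, where a difference of lines and one of processing cannot be told apart. RGS2 lay between 2.04 and 2.84 in all lines, and the intervals of its differences ran from 0.07 to 1.54 and from -0.79 to 0.68. Replicate 1 of K422 stood apart for RGS2 (3.20 against 1.88 and 1.61) as it did for RGS1, in both arrays that carry it.

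**Figure D1:**
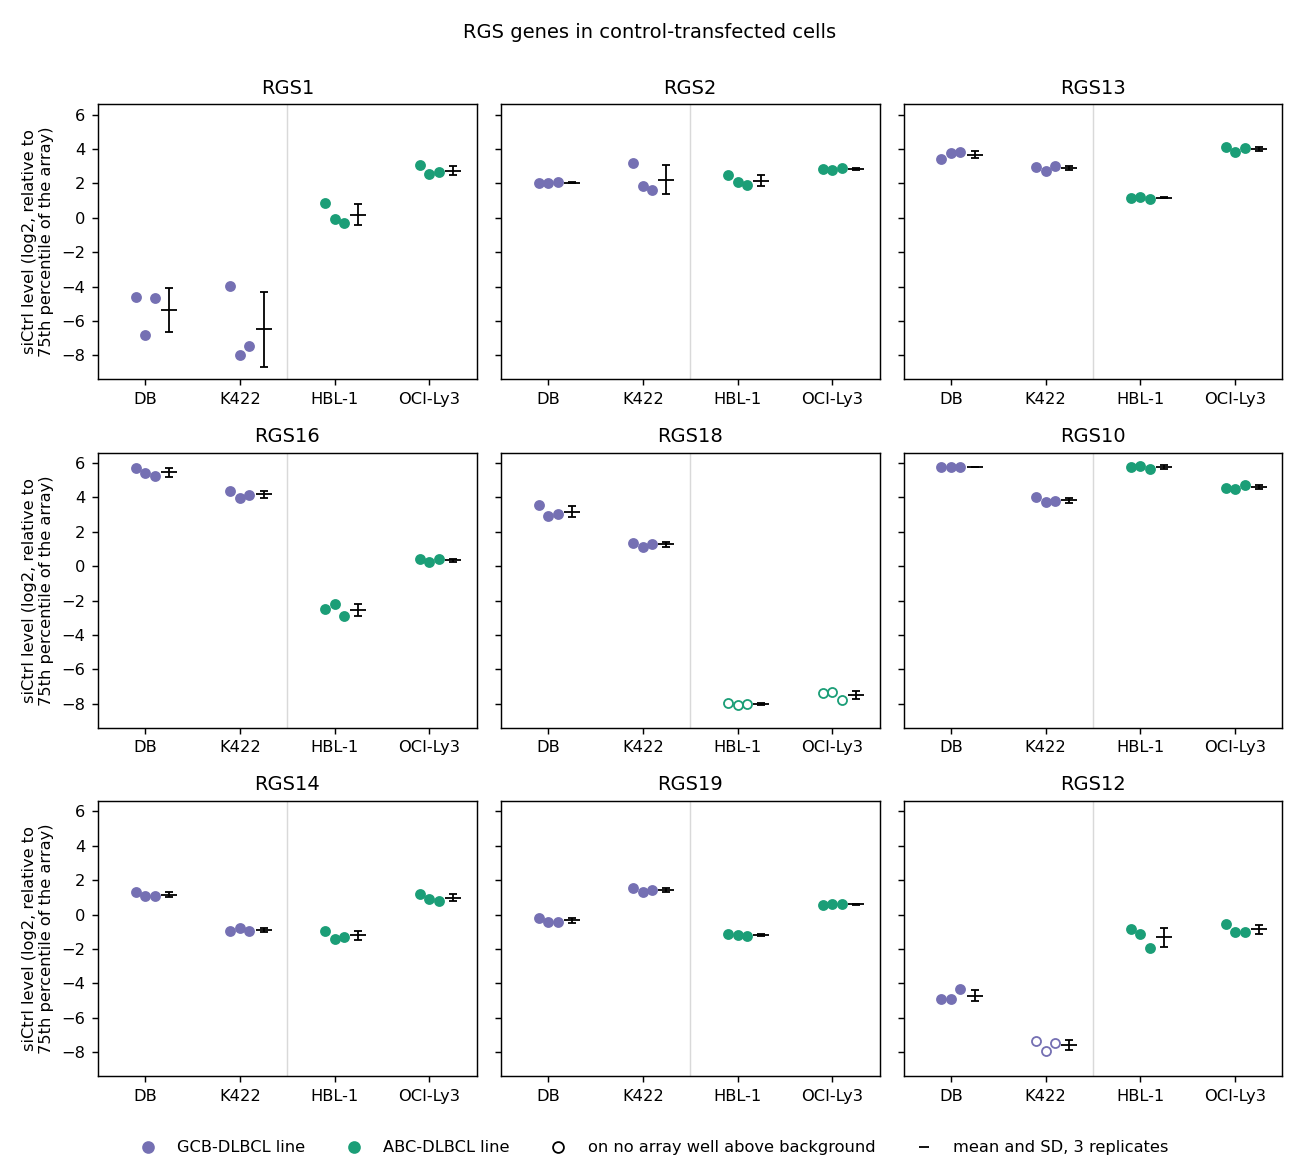
Level of the 9 RGS genes in siCtrl-treated cells (y axis, log2 relative to the 75th percentile of the array, x axis, line), one point per replicate with the mean and SD of 3, open where no array was well above background. RGS1 and RGS12 lie higher in HBL-1 and OCI-Ly3, RGS16 and RGS18 lie higher in DB and K422, and the other 5 genes follow neither order.

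On silencing, few of the RGS genes moved, and no RGS gene was called in all 4 lines. A call here needed a limma adjusted p under 0.05 and a log2 ratio of silenced over control of at least 0.5 in size (1.41-fold). In DB 1 RGS gene was called higher, where 1.33% of all genes were, and 0 lower, against 0.829% of all genes. In K422 3 were called higher (2.34% of all genes) and 0 lower (2.10%), but 2 of these 3, RGS1 and RGS12, rest on signal at background. In HBL-1 2 were called higher (5.73%) and 0 lower (4.17%). In OCI-Ly3 1 was called higher (2.80%) and 1 lower (1.62%). Over the 9 genes the median log2 ratio was 0.04 (DB), 0.06 (K422), 0.19 (HBL-1) and 0.14 (OCI-Ly3), where that of all genes was 0.00. These medians include genes at background. Over members well above background in a channel on at least 3 arrays of the line, it was 0.04, 0.02, 0.19 and 0.10. For all genes so measured it was 0.01, 0.01, 0.01 and 0.00.

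**Figure D2:**
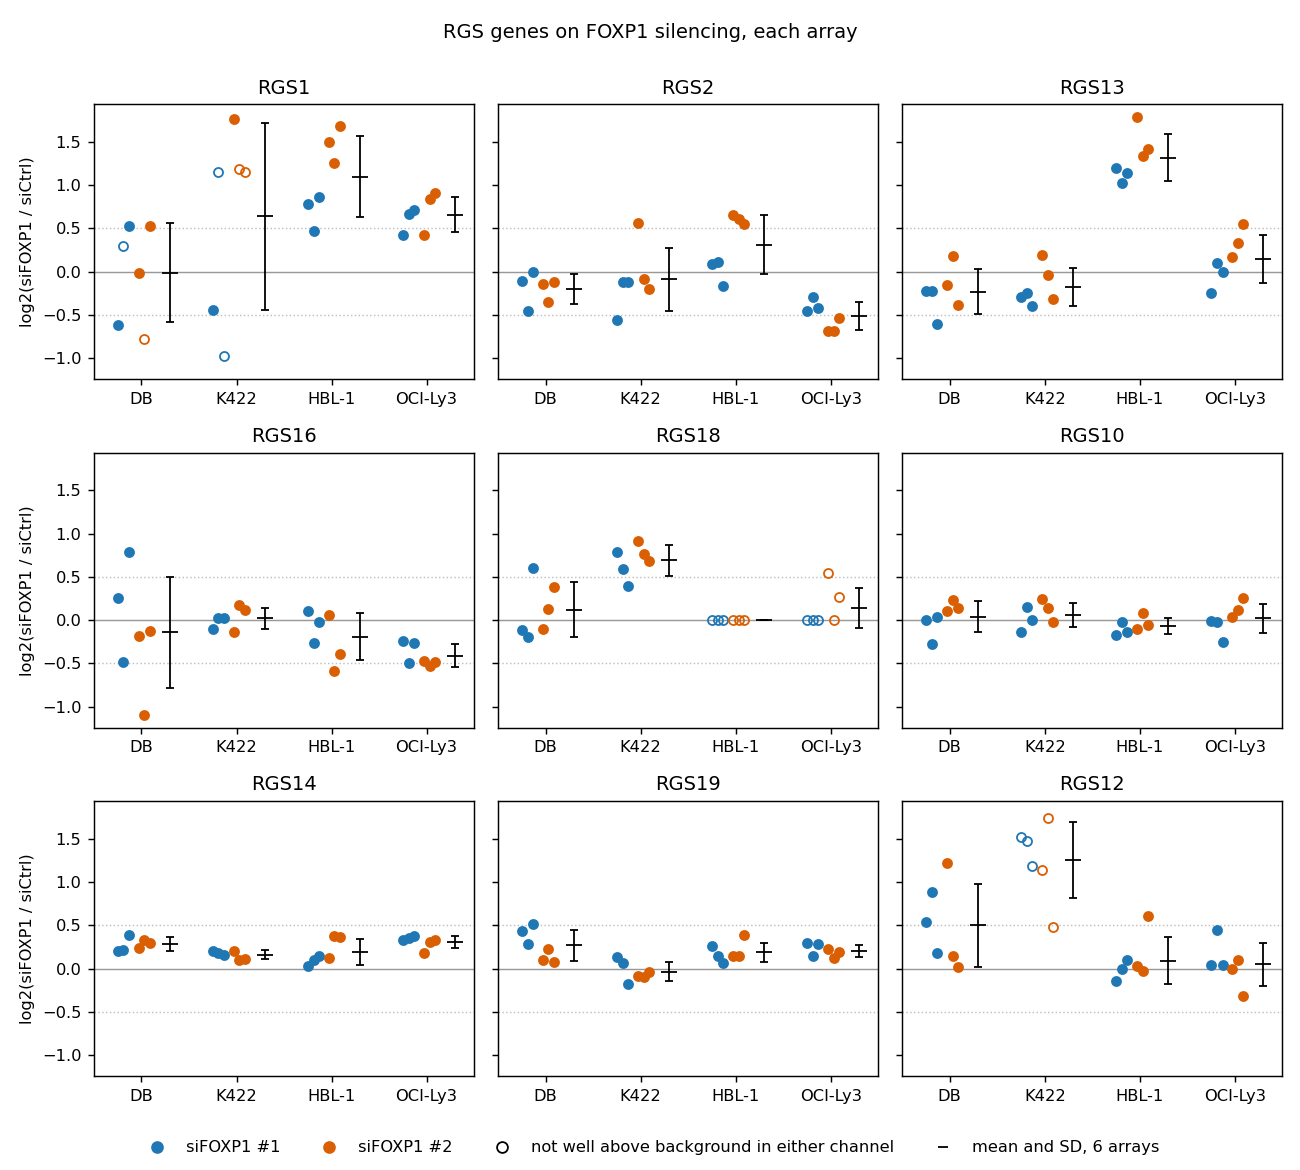
Change of the 9 RGS genes on FOXP1 silencing (y axis, log2 of siFOXP1 over siCtrl, x axis, line), one point per array, coloured by siRNA, with the mean and SD of 6 arrays, open where neither channel was well above background; dotted lines mark 0.5 and -0.5. RGS13 lies between 1.03 and 1.79 on the 6 HBL-1 arrays and at most 0.55 on all others, RGS18 is raised in K422, and the points of RGS14 all lie above 0.

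RGS13 gave the clearest change, a rise in HBL-1. Its probe lies at 190895805 to 190895864 on chromosome 1 of hg18, and it was well above background in both channels of all 24 arrays. The probes of its neighbours lie on the same chromosome and build at 190421224 to 190421283 (RGS18), 190815480 to 190815539 (RGS1) and 191047674 to 191047733 (RGS2), all on the + strand. In HBL-1 the log2 ratio was 1.20, 1.03 and 1.14 with siFOXP1 #1 and 1.79, 1.34 and 1.42 with siFOXP1 #2. All 6 values exceed every value in the other lines, the highest of which was 0.55 in OCI-Ly3. The mean of 1.32 ± 0.27 (SD, n = 6 arrays) is a 2.50-fold rise (limma adjusted p = 3.14e-09, and 6.57e-05 with 1 value per replicate number). It was -0.23 ± 0.26 in DB (adjusted p = 0.0737), -0.18 ± 0.22 in K422 (0.141) and 0.15 ± 0.28 in OCI-Ly3 (0.243), none of them called. Within software group 2 RGS13 started lower in HBL-1 (1.17) than in K422 (2.89). Its mean level after silencing, read in Cy3, was 2.49 in HBL-1 and 2.71 in K422. In software group 1 that level was 3.43 in DB and 4.14 in OCI-Ly3. Whether the starting level bears on the rise was not tested.

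RGS1 was higher on all 12 arrays of the ABC-DLBCL lines. In HBL-1 its log2 ratio was 0.78, 0.47 and 0.86 with siFOXP1 #1 and 1.50, 1.26 and 1.69 with siFOXP1 #2, so the values of the 2 siRNAs do not overlap. The mean was 1.10 ± 0.47, a 2.14-fold rise (adjusted p = 5.81e-04). It was not called with siFOXP1 #1 alone (0.71, adjusted p = 0.263). In OCI-Ly3, where the gene was already bright, the ratios were 0.43, 0.67 and 0.71 with siFOXP1 #1 and 0.43, 0.84 and 0.91 with siFOXP1 #2. Their mean of 0.66 ± 0.20, a 1.58-fold rise, was called narrowly (adjusted p = 0.0365) and was not called with the replicate number as a block (adjusted p = 0.0816) or with 1 value per replicate number (0.0782), nor after leaving out any single replicate of OCI-Ly3 or HBL-1 (0.0520 to 0.188). In DB the ratio ran from -0.78 to 0.53 around a mean of -0.01. K422 had a mean of 0.64 ± 1.08 (adjusted p = 0.0423), but only the 2 arrays of replicate 1 were above background there, with -0.44 and 1.77. That call did not hold with the replicate block (adjusted p = 0.0915), and with siFOXP1 #1 alone the mean was -0.09.

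RGS18 rose in K422. The log2 ratio was 0.79, 0.59 and 0.39 with siFOXP1 #1 and 0.92, 0.76 and 0.68 with siFOXP1 #2, a mean of 0.69 ± 0.18 and a 1.61-fold rise (adjusted p = 2.83e-05, and 0.00501 with 1 value per replicate number). In DB the ratio ran from -0.19 to 0.60 with a mean of 0.12 ± 0.32 (adjusted p = 0.474), and the 2 arrays of replicate 3 gave the 2 highest values. In HBL-1 and OCI-Ly3 no array had signal above background in either channel, and the ratio was listed at exactly 0 on all 6 arrays of HBL-1 and on 4 of 6 of OCI-Ly3, so no change could be measured.

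RGS2, which acts mainly on Gq, fell in OCI-Ly3 and was the only RGS gene called lower in any line. Its ratios there were -0.45, -0.29 and -0.42 with siFOXP1 #1 and -0.69, -0.68 and -0.54 with siFOXP1 #2. The mean fell by 0.51 on the log2 scale, to 0.701 of the control (SD 0.16, adjusted p = 3.01e-04), close to the limit of 0.5, and was not called with siFOXP1 #1 alone (-0.39, adjusted p = 0.0634) or without replicate 1 of OCI-Ly3 (-0.48, under the size limit). In HBL-1 the 2 siRNAs parted, with 0.09, 0.11 and -0.17 for siFOXP1 #1 and 0.65, 0.61 and 0.55 for siFOXP1 #2, and the mean of 0.31 ± 0.34 had an adjusted p of 0.00834 but a size under the limit, while siFOXP1 #2 alone was called higher (0.60, adjusted p = 0.00740). DB and K422 gave -0.20 ± 0.17 and -0.09 ± 0.36, neither called. In K422 replicate 1 again held both extremes, -0.56 and 0.56.

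**Figure D3:**
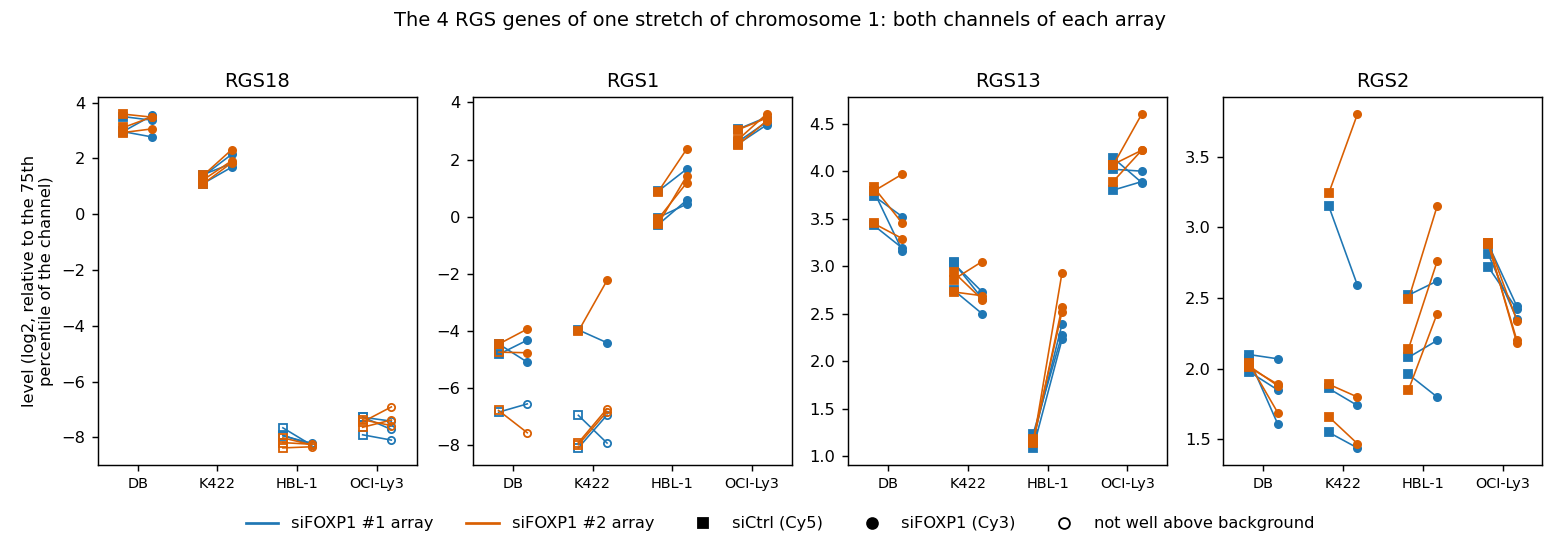
Levels of the 4 neighbouring genes on chromosome 1 in both channels of each array (y axis, log2 relative to the 75th percentile of the channel, with a scale of its own for each gene; squares siCtrl in Cy5, circles siFOXP1 in Cy3, lines join the channels of an array, open where not well above background). RGS13 and RGS1 rise on all 6 arrays of HBL-1, RGS18 rises on all 6 of K422, and RGS2 falls on all 6 of OCI-Ly3.

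RGS16 was lower on all 6 OCI-Ly3 arrays, from -0.53 to -0.24 with a median of -0.47. The mean of -0.41 ± 0.13 had an adjusted p of 0.0367 but did not reach 0.5, whereas its second, dimmer probe gave -0.57. In DB the 6 ratios spread from -1.10 to 0.79, more than in any other line. K422 and HBL-1 gave 0.02 ± 0.12 and -0.19 ± 0.27.

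RGS14, which like RGS12 binds Ras-like GTPases and carries a GoLoco motif, was slightly higher on all 24 arrays. Its mean log2 ratios were 0.28 ± 0.08 for DB, 0.16 ± 0.05 for K422, 0.19 ± 0.15 for HBL-1 and 0.31 ± 0.07 for OCI-Ly3 (limma adjusted p = 5.09e-05, 0.00332, 3.47e-04 and 6.81e-06), all under the size limit of 0.5. A second probe gave 0.41, 0.31, 0.22 and 0.49 in the same order. With median centring in place of the intensity-dependent normalization the values were 0.18, 0.05, -0.02 and 0.28 and none passed the p threshold, so the direction in HBL-1 turned there, and a bias of the fixed dye orientation cannot be told apart from a change.

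RGS19 was also slightly higher on all 6 arrays of 3 lines, with 0.27 ± 0.18 for DB (adjusted p = 6.19e-04), 0.19 ± 0.11 for HBL-1 (0.00238) and 0.20 ± 0.07 for OCI-Ly3 (0.00332), and stood at -0.04 ± 0.11 in K422. None of these reached 0.5. With median centring the values were 0.20 (DB), 0.07 (HBL-1) and 0.21 (OCI-Ly3), and none of them passed the p threshold. As for RGS14, a bias of the fixed dye orientation cannot be told apart from a change. RGS10 stayed between -0.07 and 0.06 in all lines; its 95% intervals reached from -0.18 in HBL-1 to 0.17 in K422. Only with median centring was it called, in HBL-1 (-0.59).

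RGS12 gave a ratio of 0.50 ± 0.48 in DB, from 0.02 to 1.22, which met both limits only just (adjusted p = 0.0437) at a signal near background. It was not called without replicate 1 of DB (0.31), with the replicate block (adjusted p = 0.0862), with normexp and loess (0.09), or with the mean over its 4 probes (0.36). In K422 the ratio was 1.25 ± 0.44, but neither channel was well above background on any array, so no fold is given, and with normexp and loess it was 0.07. Both ABC-DLBCL lines measured the gene on every array, with ratios of 0.09 ± 0.27 (HBL-1) and 0.05 ± 0.25 (OCI-Ly3). Of its other probes one equally bright gave -0.21 and -0.16 and a dimmer one 0.57 and 0.36.

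Whether the change itself differed between lines was tested directly. Over both lines of each subtype the change of 2 RGS genes differed between ABC-DLBCL and GCB-DLBCL, where 2.26% of all genes did. For RGS13 the difference was 0.94 ± 0.08 (SE, adjusted p = 1.02e-06). Within software group 2 it was 1.50 for HBL-1 minus K422 (adjusted p = 1.61e-07) and within software group 1 it was 0.38 for OCI-Ly3 minus DB (0.0974), so the difference between the subtypes was mostly that of HBL-1. For RGS12 the difference was -0.80 (adjusted p = 0.00306), which rests on the K422 signal at background and was -0.07 with normexp and loess. Between HBL-1 and K422 the change of 3 RGS genes was called different (4.34% of all genes), namely RGS13, RGS12 (-1.16, again on background signal) and RGS18 (-0.69, adjusted p = 0.00140). For RGS18 the HBL-1 ratios are listed at 0 without measurable signal, so that value restates the K422 rise and is no difference between 2 measured changes. Between OCI-Ly3 and DB 0 were called (1.43% of all genes), and 3, RGS1, RGS2 and RGS13, had an unadjusted limma p under 0.05. On the slides that held lines of both subtypes, the change of RGS13 was 1.85 higher in HBL-1 than in K422 and 0.45 higher in OCI-Ly3 than in DB, from 2 arrays a line and without a test. RGS1 rose in both ABC-DLBCL lines, but its difference between subtypes of 0.56 (95% interval 0.11 to 1.01, adjusted p = 0.124) was not called. It was called with normexp and loess (0.75, adjusted p = 3.54e-05) or median centring (0.57, 0.00626), and without replicate 3 of DB (0.0477) or replicate 2 of K422 (0.0238).

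The 2 siRNAs were compared within each line, in the main fit without pairing by replicate number. The change of 0 RGS genes differed between them in DB (0.302% of all genes were called), K422 (0.159%), HBL-1 (0.173%) or OCI-Ly3 (0.192%) by limma, and 10 of the 36 comparisons had an unadjusted p under 0.05. The change of RGS1 was 1.46 higher with siFOXP1 #2 in K422, at background signal, and 0.78 higher in HBL-1 (95% interval -0.12 to 1.68, adjusted p = 0.965). RGS2 was 0.59 higher with siFOXP1 #2 in HBL-1 (95% interval 0.24 to 0.95, adjusted p = 0.255), and RGS13 0.39 higher (0.04 to 0.73, adjusted p = 0.751). RGS13 was also 0.40 higher with siFOXP1 #2 in OCI-Ly3 (95% interval 0.06 to 0.75, not called). Over the 4 lines it was higher with siFOXP1 #2 in 12 of 12 pairs of the same replicate number, against 2 to 10 of 12 for the other 8 genes. Pairs of RGS18 tied at 0 count as not higher. RGS13 is named as the most extreme of these genes, and the share of all genes with 12 of 12 was not computed. With the replicate number as a block, which removes the shared spread of an experiment, RGS16 in DB was called (-0.66, adjusted p = 0.0214).

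The rest of the pathway gives the setting. Of 11 other RGS genes on the array, 1 was called higher in K422 (RGS20, 0.77), where 2.34% of all genes were. In OCI-Ly3 1 was called higher (RGS11, 0.60), where 2.80% of all genes were. Called lower were 0 in any line, against 0.829% (DB) to 4.17% (HBL-1) of all genes. Among 13 G alpha subunits, the direct substrates of RGS proteins, GNAI2, the Gi subunit that couples chemokine receptors in lymphocytes, rose by 0.57 in both K422 and HBL-1 and by 0.59 in OCI-Ly3. The other calls among them were 1 lower in HBL-1 and 1 higher in OCI-Ly3, both in genes not above background. Counted whole, the G alpha list had 1 higher and 1 lower in HBL-1 (5.73% and 4.17% of all genes) and 1 higher in K422 (2.34%). It had 2 higher in OCI-Ly3 (2.80%) and 0 in DB. Of 15 G beta and gamma subunits, GNG7 rose in HBL-1 (1.75) and K422 (1.52), GNG11 rose in HBL-1 (0.83), and GNB4 fell in HBL-1 (-0.67) and DB (-0.55). In total this list had 3 higher and 1 lower in HBL-1 (5.73% and 4.17% of all genes), 1 higher in K422 (2.34%), 1 and 1 in DB (1.33% and 0.829%), and 0 in OCI-Ly3.

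Of 12 receptors that position B cells, 3 were called higher and 1 lower in HBL-1 (5.73% and 4.17% of all genes), 2 and 1 in K422 (2.34% and 2.10%), 1 higher in OCI-Ly3 (2.80%) and 0 in DB. CXCR4, which draws germinal centre B cells to the dark zone, rose in HBL-1 (2.43 ± 0.87, a 5.40-fold rise, adjusted p = 1.32e-08) and in K422 (1.16 ± 0.60), S1PR1, an egress receptor, rose in OCI-Ly3 (1.43 ± 0.45), and CCR6 fell in HBL-1 (-0.80 ± 0.21). The rise of CXCR4 was greater in HBL-1, the line in which RGS13 rose, than in K422, where RGS13 was -0.18 and not called. HBL-1 also had the largest share of all genes called higher (5.73%), and a link between RGS13 and CXCR4 was not tested. Of 12 desensitising kinases, arrestins and other regulators, 2 were called higher in HBL-1 (GPSM3, 0.64, and GRK5, 0.52), where 5.73% of all genes were. In K422 1 was called lower (GPSM1, -1.33), where 2.10% of all genes were. Of 16 effectors, PIK3R5, a regulatory subunit of the PI3-kinase that G proteins activate, rose in OCI-Ly3 (0.95), as did ADCY6 (0.65). In that line 2.80% of all genes were called higher. Another effector, 1 in number, was called higher in HBL-1 (5.73% of all genes), and 0 were called in DB or K422.

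The genes whose 24 log2 ratios ran most like those of a member are given as a description over arrays that share lines and dyes. For RGS13 they were CD24 (Pearson r 0.94), IL28RA (0.94) and AW136683 (0.93). Their mean ratios were 2.39, 1.61 and 3.56 in HBL-1 and 0.70, 0.19 and 0.39 in OCI-Ly3. The HBL-1 means stand apart, as does that of RGS13, and no correlation was computed without that line. For RGS18 the genes most alike were TSC22D1 (0.91), ZNF99 (0.88) and ACAP2 (0.86), but its 12 ratios in HBL-1 and OCI-Ly3 are at background and 10 of them are 0. They were, for RGS2, C9orf3 and IL16 (both 0.82) and SH3PXD2A (0.81), and for RGS1, MDM4 (0.78), CRYBB2 (0.73) and ARID5B (0.72). RGS1 was at background in both channels on the arrays of DB replicate 2 and K422 replicates 2 and 3, which are among the points. MDM4, CRYBB2 and ARID5B had mean ratios of -0.05, 0.09 and 0.47 in HBL-1 and 0.04, -0.12 and 0.19 in OCI-Ly3. RGS1 itself had 1.10 and 0.66 in these lines. For RGS12 the values were 0.78 for a probe with no gene symbol and 0.77 for RALGPS2 and SMYD3, with its background signal in K422 among the points.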

How the data were processed

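RNA of 24 pairs of silenced and control samples was hybridised to two-colour Agilent whole-genome arrays. The authors deposited Feature Extraction output (versions 10.5.1.1 and 10.7.3.1 per the file headers), which lists the intensity of either channel and the log10 ratio of Cy5 to Cy3, already corrected for background and normalized within the array (linear and loess). The deposited matrix holds log2 ratios of Cy3 over Cy5, which correlated at 0.804 to 0.998 with the arrays' own ratios, and was used as an alternative. Its column medians ran from -0.17 to 0.07, so it was not centred.

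Ratios were turned to log2 of silenced over control. Of 45015 spots, 1639 control spots and 113 to 469 outlier spots per array were not used. Repeat spots were averaged by probe and the brightest probe stood for a gene. The share of probes well above background in 1 or both channels was 57.2% to 64.4% per array; precision is limited by how many arrays there are. With limma 3.58.1 in R 4.3.3 a mean was fitted per line and siRNA over all arrays, a line's value being the mean of both siRNAs, and levels were fitted over 3 siCtrl samples per line, each the mean of 2 arrays. P-values were adjusted by Benjamini-Hochberg across all genes. A bound for a dim gene compares normexp, loess and Aquantile Cy5 values with the lowest signal above background on each array.

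Alternatives were normexp (offset 50) with loess or median centring, filters on dim probes, the authors' matrix, a gene's mean over its probes, outlier spots left in, replicate number or slide as a block, 1 value per replicate number, each line or siRNA alone, the t-test of the methods, a trended robust prior and leaving out each replicate; for levels also Aquantile and quantile normalization and the Cy3 channel. Slide as a block for levels, single other probes and within-slide differences were added after seeing the data. Replicate numbers mark independent experiments in the series text and were taken as pairing the arrays of a line in the alternatives that use them. The main fit did not use this pairing and treated the arrays of a line as independent. With the replicate block 273 genes were called between the siRNAs in DB, against 91 in the main fit, and 506 between the subtypes, against 682. Deviations of same-numbered arrays correlated at 0.0468 to 0.284 over all genes and 0.115 to 0.573 over 16450 genes above background. The siCtrl channels of same-numbered arrays differed with an SD of 0.182 to 0.329 over genes against 0.282 to 0.633 for other numbers of a line, and whether they held the same RNA is not stated.

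All 9 members are named whatever their values; of each pathway list, at most the 3 genes with the greatest change that were called and above background on all 6 arrays of a line. One effector called in a line is not reported here. The likeness in pattern was ranked by Pearson r over 24 arrays, for members called in a line and above background on at least 12 arrays. The members and lists were chosen with earlier results of these data known. Promoter windows come from RefSeq (GRCh38.p14), which held all 9 genes.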

Additional observations from a re-analysis of the deposited data

Results flagged for a closer look

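Among 35 groups of 6 arrays, 2 held a value far from the other 5, where about 1.8 are flagged by chance. RGS12 in HBL-1 was 0.61 on the array of siFOXP1 #2 replicate 3, against -0.15 to 0.10 on the others. RGS14 in OCI-Ly3 was 0.18 on the array of siFOXP1 #2 replicate 1, against 0.31 to 0.38 on the others.

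Between groups of lines the limma test of the difference in change passed for RGS13, RGS12 and RGS18, of which RGS13 alone was measured above background on both sides. RGS13 differed by 0.94 between ABC-DLBCL and GCB-DLBCL lines and by 1.50 between HBL-1 and K422. RGS12 differed by -0.80 and -1.16 in the same comparisons, with K422 at background. For RGS18 the value of -0.69 between HBL-1 and K422 sets the K422 rise against HBL-1 ratios listed at 0, so no difference in change was measured.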

How the results depend on the processing

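The rises of RGS13 in HBL-1 (0.96 to 1.51) and of RGS18 in K422 (0.52 to 0.79) were called under all 27 alternatives. That of RGS1 in HBL-1 was called under 26 of 27, and the fall of RGS2 in OCI-Ly3 under 25. Several of the alternatives could not move the value itself. Leaving out a replicate of another line, the filters on dim probes and the trended robust prior change only the estimated spread or the adjustment of p. RGS1 in OCI-Ly3 lost its call under 11, the leaving out of any HBL-1 or OCI-Ly3 replicate among them, and RGS12 in DB under 19, and RGS1 in K422 was lost under 15 of 26 and turned to -0.09 with siFOXP1 #1 alone. The cause was not tested.

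Of called RGS genes, DB had 1. It had 0 with either form of normexp, the mean over probes, the replicate block, the slide block, 1 value per replicate number, each line alone, siFOXP1 #1 alone, siFOXP1 #2 alone and the methods' t-test. K422 had 3. It had 1 with either form of normexp and with the filter on 1 channel. RGS12 lost its call there with the mean over probes and with siFOXP1 #2 alone. RGS1 lost its call there with the replicate block, the slide block, 1 value per replicate number and siFOXP1 #1 alone. It did so too with each line alone, the methods' t-test, and without K422 replicate 1 or 2 or any single replicate of HBL-1 or OCI-Ly3. HBL-1 had 2, 1 with siFOXP1 #1 alone, and 3 with siFOXP1 #2 alone or median centring. OCI-Ly3 had 2. It had 1 with the replicate block, the slide block, 1 value per replicate number and siFOXP1 #2 alone, and 0 with siFOXP1 #1 alone. The difference between subtypes was called for 2 genes, and for 1 with siFOXP1 #2 alone or when probes were averaged. With either form of normexp the 2 were RGS13 and RGS1, and RGS12 was lost (-0.07 with loess, -0.18 with median centring). The authors' matrix added RGS18 (-0.54, limma adjusted p = 0.00254), which was at background in both ABC-DLBCL lines. The difference between siRNAs was called for 0, and for 1 with the replicate block, which changed no other call than those named here and above. Leaving out single replicates gave 0 to 1 genes in DB, 0 to 2 in OCI-Ly3 (0 without OCI-Ly3 replicate 1), 3 at most between subtypes and 0 to 1 between siRNAs. Those last were RGS2 in HBL-1 (0.59) without K422 replicate 1 and RGS1 in K422 (2.17) without K422 replicate 2.

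The siCtrl levels kept 5 to 6 calls between OCI-Ly3 and DB and 6 to 7 between HBL-1 and K422 under 21 alternatives. Of these, 1 read the Cy3 channel, which holds the silenced RNA and not siCtrl. The count of 6 between HBL-1 and K422 came from that channel, where RGS13 was not called (-0.22). Signal at background limits RGS1 and RGS12 in DB and K422 and RGS18 in HBL-1 and OCI-Ly3.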
